A study of Mus musculus with 11 samples.

Results

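The genes described here encode nuclear RNA-binding proteins: 25 heterogeneous nuclear ribonucleoproteins (hnRNPs) and their close relatives, 2 proteins of the FET family, the mRNA export adaptor Alyref and 10 serine/arginine-rich (SR) splicing factors. They were chosen by name, not by any measured value, and are 38 of the 21957 genes in the count table; each of the 38 had an entry.

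The cells were primed OT1 cells, mouse CD8 T cells that carry a transgenic T cell receptor. Stimulated cells had been exposed for 2 h to beads carrying antibodies against CD3 and CD28, and unstimulated cells (labelled T0) had been kept at rest over the same time. Both then received cycloheximide, which halts elongating ribosomes, for 10 min. RNA was measured in 3 stimulated and 3 unstimulated libraries. Ribosome footprints, the mRNA fragments that ribosomes protect from nuclease, were measured in 2 stimulated libraries (replicates 2 and 3) and 3 unstimulated ones. The series addresses how mRNA and its translation change within 2 h of activation in CD8 memory T cells. The labels give no strain, age or number of mice, and do not say whether replicates were separate cultures or animals, so p-values measure only the spread between these samples.

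The hnRNPs bind nascent transcripts and act in splicing, polyadenylation, export, stability and translation, often by holding exons out of the mature mRNA. SR proteins bind exonic enhancers through RNA recognition motifs and recruit the spliceosome through their RS domains, and many of them limit their own amount by including exons that send the mRNA to decay. In T cells, exon choice in Ptprc, which encodes the phosphatase CD45, is the textbook case of splicing that changes with activation, and Hnrnpl, Hnrnpll and Ptbp1 are known to act on it.

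An RNA library held between 21658263 and 39346699 counts and a footprint library between 11136 and 23641, with a combined 85433 footprints. Of the 12 CD8 T cell markers examined (Cd3d, Cd8a, Lck and the like), 12 exceeded 10 CPM (counts scaled to library size) in RNA, while none of 8 B cell, 11 myeloid or 6 red cell markers did. The 4 genes with an outsized share (Gm10800, Gm10801, Gm20594 and Lars2) took 25.01, 22.5 and 12.8% of the RNA counts in stimulated replicates 1, 2 and 3, against 4.09, 14.9 and 5.14% in unstimulated replicates 1, 2 and 3. Stimulated replicate 3 and unstimulated replicate 2 thus stood apart from the other libraries of their groups in that share. In stimulated replicate 3, CPM scaled by TMM (a trimmed mean of ratios between libraries) was at least 1.3 times that of stimulated replicate 1 for 35 of the 38 members, with a median of 1.46 times. RNA results are given under several scalings for this reason. Of the 5 CD4 and regulatory T cell markers, the summed RNA level was 221 to 311 CPM in stimulated libraries and 525 to 556 CPM in unstimulated libraries, with 3 of the 5 over 10 CPM, mostly from Ctla4, and Cd4 at a mean of 2.49 CPM in stimulated and 1.36 CPM in unstimulated libraries. In each of 3 other lists 1 marker exceeded 10 CPM. The 6 dendritic cell markers (Zbtb46 over 10 CPM) summed to 36.5 to 38.5 CPM in stimulated and 19.0 to 28.4 CPM in unstimulated libraries, and the 4 NK cell markers (Eomes, which CD8 T cells also express) to 49.3 to 67.7 CPM in stimulated and 37.9 to 38.3 CPM in unstimulated libraries. The 6 stromal and epithelial markers (Pecam1) summed to 63.1 to 79.8 CPM in stimulated and 103 to 111 CPM in unstimulated libraries, and the 6 red cell markers to 2.27 to 4.24 CPM in stimulated and 4.73 to 5.72 CPM in unstimulated libraries. The groups did not overlap in these sums, and the part of such cells in the results was not tested.

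As a family, the members' RNA did not move in 1 direction under every scaling, but single members moved against each other. All 38 members passed the filter on low counts. With edgeR's quasi-likelihood test on counts scaled by TMM over all 18886 tested genes, 1 of 38 rose (Hnrnpll), 1 fell (Taf15) and 36 did not pass an adjusted p of 0.05. Over all tested genes, 3.58% were called higher and 4.68% lower, so the members' 2.63% in each direction was near or below the background. At an unadjusted p under 0.05 there were 4 members, which is 10.5% of them, against 20.6% of all tested genes. The members' median log2 change (stimulated over unstimulated) was 0.06, beside 0.39 over all tested genes. That overall median came from weakly measured genes: the 10392 genes under 10 CPM had a median of 1.03 and the 8494 genes of at least 10 CPM one of -0.09. In bulk samples, fewer cells of a type and less RNA per cell cannot be told apart in any of these values.

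Hnrnpll (chromosome 17, 80029487 to 80062268, GRCm38) encodes hnRNP L-like, known to silence Ptprc exons in activated and memory lymphocytes. Its RNA was at 73.5, 81.2 and 108 CPM in stimulated replicates 1, 2 and 3, against 56.1, 50.2 and 55.9 CPM in unstimulated replicates 1, 2 and 3. Every stimulated library lay above every unstimulated one, a log2 change of 0.70 ± 0.18 (SE, n = 3 per group, edgeR adjusted p = 0.0390). The call was lost without stimulated replicate 1 (adjusted p = 0.359) or 2 (0.367) or unstimulated replicate 1 (0.177) or 3 (0.353). It was also lost with RLE scaling (adjusted p = 0.225), without the 4 dominant genes in the scaling (0.123), with DESeq2 (0.272) and with no filter on low counts (0.162), and it passed in 10 of 19 alternatives, over which the adjusted p ran between 6.05e-08 and 0.367. The log2 change stayed positive in all 19, between 0.37 and 0.79. Hnrnpll overlaps 4933407O12Rik in the RefSeq annotation, and strand handling in the counting is not given in the sources used here, so reads of the pair may not be separable.

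Taf15 (chromosome 11, 83473073 to 83506743) encodes a FET protein, an RNA- and DNA-binding partner of the general transcription factor TFIID. Its RNA was at 31.7, 32.8 and 33.6 CPM in stimulated libraries, against 49.0, 44.7 and 47.3 CPM in unstimulated libraries. The groups did not overlap, and the log2 change was -0.52 ± 0.14 (edgeR adjusted p = 0.0422). Stimulated replicate 3 stood at 1.06 times stimulated replicate 1 here, where the median over members was 1.46 times. The call was lost without stimulated replicate 1 (adjusted p = 0.237) or 2 (0.273) or unstimulated replicate 1 (0.331) or 3 (0.352), without the 4 dominant genes in the scaling (0.0782) and with no filter on low counts (0.0809). It passed in 11 of 19 alternatives, over which the adjusted p lay between 7.67e-06 and 0.352 and the log2 change between -0.84 and -0.41. The other FET member, Ewsr1, was at 364, 418 and 546 CPM in stimulated libraries, against 429.7, 412 and 421 CPM in unstimulated ones, a log2 change of 0.07 ± 0.20 with overlapping groups (adjusted p = 0.796).

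Syncrip and Pcbp1 had the next highest log2 changes. Syncrip (chromosome 9, 88449364 to 88482591) encodes hnRNP Q, an mRNA-binding protein of nucleus and cytoplasm. It was at 376, 407 and 528 CPM in stimulated libraries, against 302, 267 and 293 CPM in unstimulated libraries (log2 change 0.60 ± 0.20, edgeR adjusted p = 0.0935). Pcbp1 (chromosome 6, 86524480 to 86526189) encodes a poly(C)-binding protein with KH domains that acts in mRNA stability and translation and as an iron chaperone. It was at 38.2, 45.7 and 62.2 CPM in stimulated libraries, against 35.3, 34.9 and 35.6 CPM in unstimulated libraries (0.46 ± 0.19, adjusted p = 0.176). Neither pair of groups overlapped, and neither gene passed the test under TMM over all tested genes. In scaled CPM the groups did not overlap for 6 members with higher and 4 with lower RNA in stimulated libraries. Besides Hnrnpll, Taf15, Syncrip and Pcbp1, these were Hnrnpab, Hnrnph2 and Srsf10 (higher) and Hnrnpa3, Hnrnpd and Hnrnph3 (lower). The share of all genes without such overlap was not computed, so these counts are not read as results about the members.

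**Figure D1:**
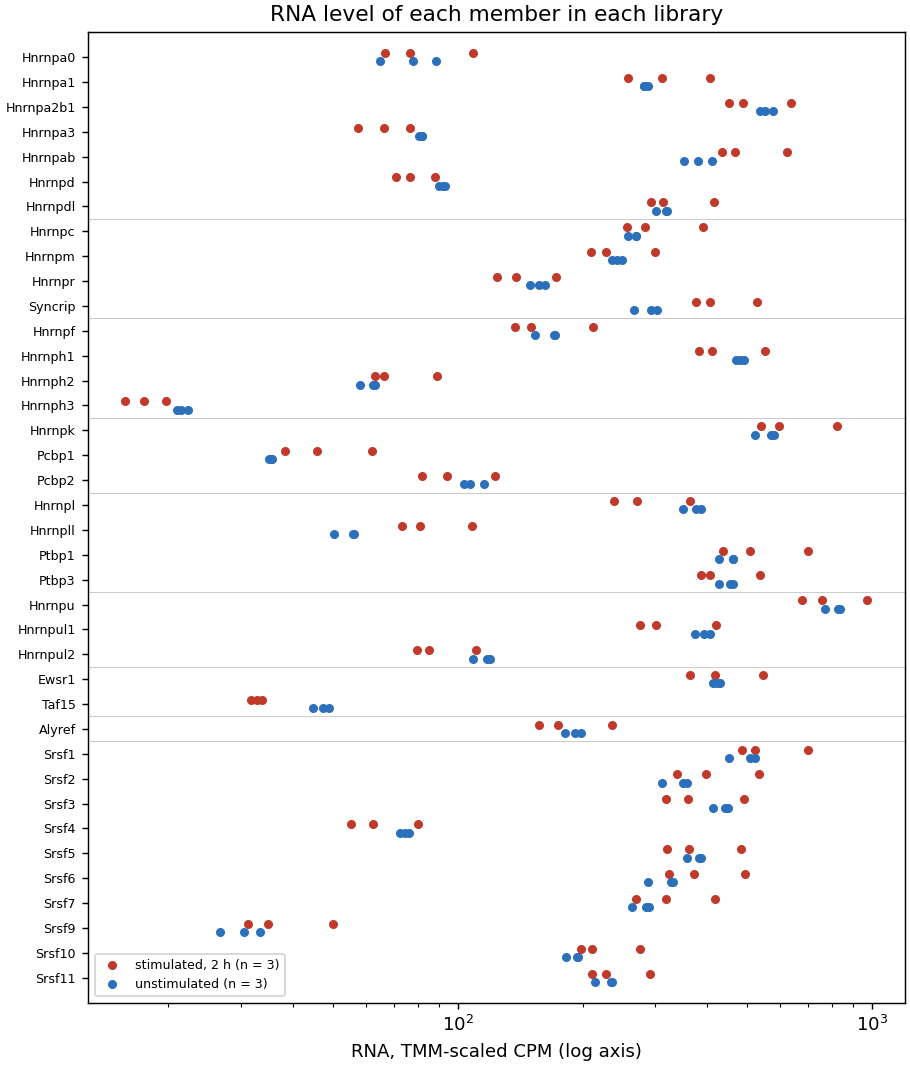
RNA level of each of the 38 members as TMM-scaled CPM on a log axis, with 1 point per library (stimulated above, unstimulated below within each row) and grey lines between protein families. Hnrnpll, Syncrip and Pcbp1 are among 6 members with stimulated points right of all unstimulated ones, and Taf15 is among 4 with them left. For most members stimulated replicate 3 is the rightmost red point.

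Promoters are shown for 3 members at the ends of the RNA changes: Syncrip and Pcbp1, which with Hnrnpll had the highest log2 changes, and Taf15, which fell. Each runs from 250 bases before to 50 bases after a start annotated by RefSeq on GRCm38.p6, read 5′ to 3′ along the gene's strand. Only the first start listed for a gene was used. For Syncrip and Taf15 that start lies inside the gene span given above, so some bases before it are within the gene. Syncrip's is chr9:88482348-88482647 on the minus strand, Pcbp1's chr6:86526140-86526439 on the minus strand and Taf15's chr11:83472858-83473157 on the plus strand. Capitals mark matches, on either strand, to any motif searched.
Syncrip: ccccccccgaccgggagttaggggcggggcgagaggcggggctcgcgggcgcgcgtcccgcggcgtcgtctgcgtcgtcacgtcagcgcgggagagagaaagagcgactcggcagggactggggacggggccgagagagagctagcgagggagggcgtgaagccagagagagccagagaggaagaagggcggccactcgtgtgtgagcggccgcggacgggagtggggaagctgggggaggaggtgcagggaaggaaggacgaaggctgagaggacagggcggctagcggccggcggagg
Pcbp1: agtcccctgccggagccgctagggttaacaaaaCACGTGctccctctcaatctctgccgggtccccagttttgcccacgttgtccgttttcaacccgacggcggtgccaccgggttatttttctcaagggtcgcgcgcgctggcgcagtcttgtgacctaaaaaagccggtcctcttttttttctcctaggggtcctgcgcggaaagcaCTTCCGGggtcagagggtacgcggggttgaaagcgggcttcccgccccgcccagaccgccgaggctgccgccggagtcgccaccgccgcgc
Taf15: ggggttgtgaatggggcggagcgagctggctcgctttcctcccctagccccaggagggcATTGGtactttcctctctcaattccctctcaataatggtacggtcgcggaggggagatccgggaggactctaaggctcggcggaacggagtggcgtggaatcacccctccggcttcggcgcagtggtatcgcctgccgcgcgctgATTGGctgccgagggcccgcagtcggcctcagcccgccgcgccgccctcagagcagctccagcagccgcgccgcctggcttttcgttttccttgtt

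The Pcbp1 window holds an E-box (CACGTG) and, on the other strand, an ETS motif (CCGGAAG). The Taf15 window holds the CCAAT box on the other strand, and the Syncrip window holds none of the letters searched. A promoter entry was found for 35 of the 38 members; Hnrnpll, Ptbp3 and Hnrnpul2 had none. Among the 35, the E-box was in 6 (17.1%, against 7.24% of all 27025 promoters), the ETS motif in 9 (25.7%, against 9.12%) and the CCAAT box in 19 (54.3%, against 37.9%). TATAAA was in 5 (14.3%, against 14.2%) and the AP-1 motif TGANTCA in 1 (2.86%, against 7.93%), that of Hnrnpa1. The cyclic AMP response element TGACGTCA, in 1.88% of all promoters, was in 0 of the 35. A start of C followed by 4 pyrimidines, as in TOP mRNAs, was found in 2 (5.71%, against 2.49%), Srsf5 and Hnrnpa0. Matches to different motifs overlapped in 0 of the 35. The members' median GC content was 66.3%, beside 52.7% over all promoters, and GC-rich motifs match more often in GC-rich windows. These are matches of letters and were not tied to the RNA changes.

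The scaling set the direction of many members. Refitted on the 8494 genes of at least 10 CPM, with TMM computed on those genes, edgeR called 24 of 38 members higher, 5 lower and 9 neither, while it called 36.9% of those genes higher and 36.4% lower. The members' 63.2% higher stood above that background and their 13.2% lower stood below it. Their median log2 change was then 0.15, beside 0.00 over the genes tested. With RLE scaling over all genes the members' median was -0.17, with library totals -0.13, and with the 4 dominant genes left out of the scaling -0.06. Over these 5 scalings 12 members had a positive log2 change in all, 12 a negative one in all, and 14 changed sign. DESeq2 called 0 members higher and 4 lower, where it called 3.1% of genes higher and 22.1% lower. Leaving out unstimulated replicate 2 gave 2 members higher and 21 lower by edgeR, where 35.6% of genes were called higher and 32.1% lower. Leaving out stimulated replicate 3 gave 2 higher and 10 lower, where 5.05% of genes were called higher and 21.9% lower.

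**Figure D2:**
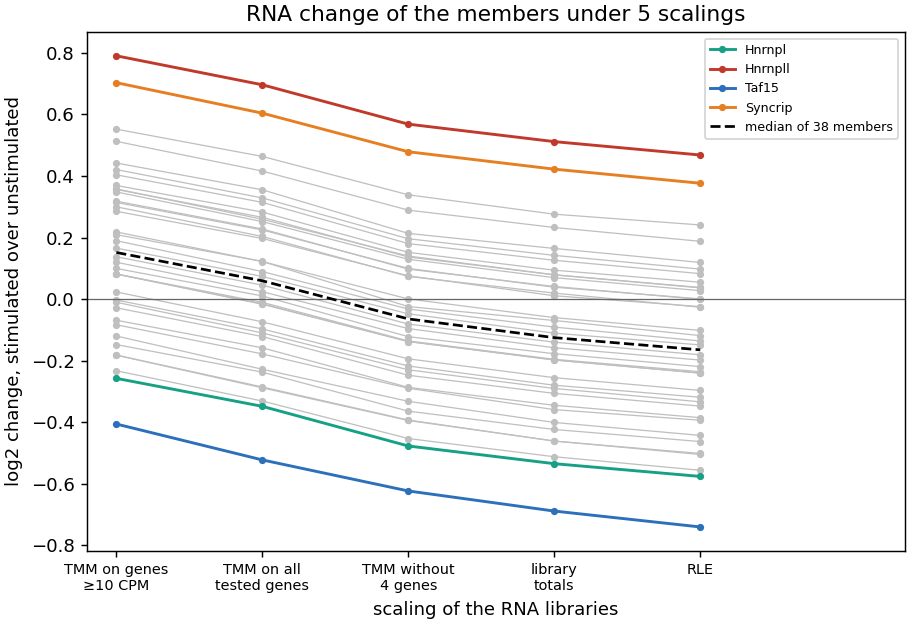
Log2 change in RNA (stimulated over unstimulated, vertical axis) of each of the 38 members under 5 scalings of the 6 RNA libraries, with 4 members in colour, the others in grey and the members' median as a dashed line. The lines run nearly parallel: the median passes from 0.15 to -0.17 across the scalings, while Hnrnpll and Syncrip stay above 0 and Taf15 and Hnrnpl stay below 0.

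In the fit on genes of at least 10 CPM, 36.9% were called higher and 36.4% lower, the background for each family below. By family, 8 of the 10 SR genes were called higher and 0 lower. Srsf9 (log2 change 0.44), Srsf6 (0.42) and Srsf2 (0.40), a regulator of exon inclusion that also acts in transcription elongation, were highest among them. Srsf3 (-0.07) and Srsf4 (-0.08) did not pass. The direction of the SR genes depended on the scaling: 8 of 10 lay above 0 under TMM over all tested genes (median 0.23) but 5 of 10 with RLE scaling (median 0.00), and none passed under TMM over all tested genes by edgeR's adjusted p. Among the A/B and D proteins, exon-silencing and mRNA-binding factors, 4 of 7 were called higher (Hnrnpab 0.51, Hnrnpa1 0.29, Hnrnpdl 0.22 and Hnrnpa0 0.21) and 1 lower (Hnrnpa3 -0.18).

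Among the C, M, R and Q proteins, Syncrip (0.70), Hnrnpc (0.31), which binds uridine tracts, and Hnrnpm (0.12) were called higher and Hnrnpr (-0.01) did not pass. Of the F/H proteins, which bind runs of G, Hnrnph2 (0.35) and Hnrnpf (0.10) were called higher, and Hnrnph1 (0.00) and Hnrnph3 (-0.18) did not pass. Of the KH-domain proteins, Pcbp1 (0.55) and Hnrnpk (0.32) were called higher and Pcbp2 (-0.03) did not pass. Hnrnpll (0.79) and the splicing repressor Ptbp1 (0.37) were called higher, Hnrnpl (-0.26) lower, and Ptbp3 (0.08) did not pass. The U proteins, which bind RNA and chromatin scaffolds, split: Hnrnpul2 (-0.23) and Hnrnpul1 (-0.15) were called lower and Hnrnpu (0.08) higher. Ewsr1 (0.17) and Alyref (0.08), which hands spliced mRNA to the export receptor Nxf1, were called higher and Taf15 (-0.41) lower. Scaled to the members' own summed counts, 14 members were called higher (22.1% of genes) and 17 lower (54.8% of genes). Hnrnpf, Hnrnpu and Alyref were among those called lower. This scaling was chosen after the data were seen. It sets the members against their own sum, so the percentages of genes are not a like background for them.

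The share of each member in the 38 members' summed counts does not depend on library scaling. These shares add to a whole, so some must fall where others rise, and they were not tested. For 14 members (36.8%) every stimulated library had a higher share than every unstimulated one, for 19 (50%) every stimulated library had a lower share, and for 5 the groups overlapped. For all genes of at least 10 CPM set against the same sum, the figures were 22.6% and 56%. The members are set against their own sum and other genes are not, so these figures are not a like background. The 14 were 6 SR genes (Srsf1, Srsf2, Srsf6, Srsf7, Srsf9 and Srsf10) with Hnrnpll, Syncrip, Pcbp1, Hnrnpab, Ptbp1, Hnrnph2, Hnrnpk and Hnrnpc.

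Hnrnpll made up 0.805, 0.801 and 0.804% of the members' counts in stimulated libraries, against 0.533, 0.518 and 0.536% in unstimulated libraries. Syncrip made up 4.12, 4.01 and 3.92% in stimulated libraries, against 2.87, 2.75 and 2.81% in unstimulated ones. Both shares differed little within a group and lay far apart between groups. Hnrnpl, which encodes the protein most like hnRNP L-like, made up 2.60, 2.68 and 2.70% in stimulated libraries, against 3.67, 3.59 and 3.60% in unstimulated libraries. Taf15 made up 0.348, 0.323 and 0.249% in stimulated libraries, against 0.465, 0.460 and 0.453% in unstimulated libraries, and stimulated replicate 3 was the lowest of its group. Hnrnpul2, Hnrnpa3 and Hnrnpul1 also had lower shares, with log2 ratios of -0.42, -0.37 and -0.34.

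**Figure D3:**
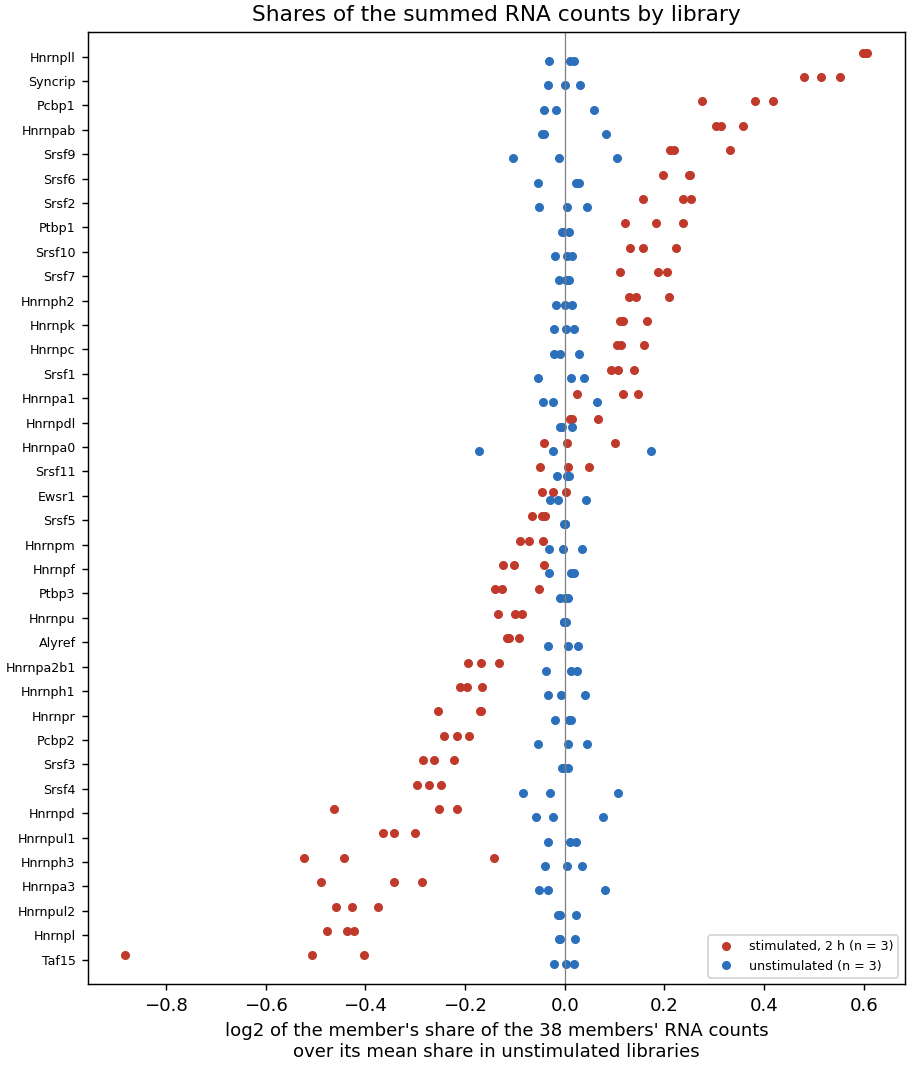
Each member's share of the 38 members' summed RNA counts per library, as log2 over its mean share in the unstimulated libraries (horizontal axis), with 1 point per library and members sorted by the stimulated mean. Hnrnpll and Syncrip stand at the top with log2 ratios of 0.60 and 0.52, Taf15 and Hnrnpl at the bottom with -0.58 and -0.45.

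Ratios of 2 related genes within a library are also free of scaling. The 8 pairs given here were chosen after their values were seen and are descriptions. Hnrnpll over Hnrnpl was 0.309, 0.299 and 0.298 in stimulated libraries, against 0.145, 0.144 and 0.149 in unstimulated libraries, 2.07 times as high on average. Syncrip over Hnrnpr, its closest relative, was 3.03, 2.95 and 3.06 in stimulated libraries, against 1.86, 1.79 and 1.86 in unstimulated ones (1.64 times). Each of these ratios separated the groups with little spread inside them. Pcbp1 over Pcbp2 was 0.466, 0.484 and 0.505 in stimulated libraries, against 0.306, 0.337 and 0.333 in unstimulated libraries (1.49 times). Taf15 over Ewsr1 was 0.0871, 0.0783 and 0.0615 in stimulated libraries, against 0.114, 0.108 and 0.112 in unstimulated libraries (0.678 times). Srsf6 over Srsf4 was 1.41 times as high in stimulated libraries, Srsf7 over Srsf3, both SR proteins that also serve in mRNA export, 1.34 times, Hnrnph2 over Hnrnph1 1.28 times and Ptbp1 over Ptbp3 1.22 times.

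The summed RNA of the members did not separate the groups. It was 9126, 10137 and 13464 CPM in stimulated libraries, against 10526, 9706 and 10436 CPM in unstimulated libraries, a log2 ratio of 0.09, and 1.02 ± 0.0874% against 1.08 ± 0.0704% of all counts (SD, n = 3 each). The stimulated libraries span the unstimulated ones, with replicate 3 highest and replicate 1 lowest. The ratio changed sign to -0.13 with RLE scaling, -0.09 with library totals and -0.03 without the 4 dominant genes in the scaling. It was also below 0 without unstimulated replicate 2 (-0.21), stimulated replicate 2 (-0.03) or stimulated replicate 3 (-0.09). The 10 SR genes summed to 2549, 2864 and 3812 CPM in stimulated libraries, against 2864, 2583 and 2837 CPM in unstimulated libraries.

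Other genes of splicing and export, from 7 lists of related factors, gave few calls in the fit over all tested genes. The exception was Snu13 of the U4/U6.U5 tri-snRNP, whose protein binds the U4 RNA: 76.4 ± 12.5 CPM in stimulated and 47.7 ± 1.57 CPM in unstimulated libraries (log2 change 0.68 ± 0.17, edgeR adjusted p = 0.0296, n = 3 each). It was 1 of 21 genes of its list called higher, against a background of 3.58%, and the other 6 lists had 0 calls in either direction. On genes of at least 10 CPM, where 36.9% of genes were called higher and 36.4% lower, 19 of 24 U1 and U2 snRNP and Sm genes were called higher and 0 lower. Of 21 exon junction and mRNA export genes, 15 were called higher and 0 lower, and of 21 tri-snRNP genes 14 higher and 1 lower. In the fit over all tested genes, the median log2 changes of these lists were 0.16, 0.06 and 0.10 in that order. The lists were not examined under the other scalings, under which the members' median changed sign, so their direction is not settled. SR-related factors gave 5 higher and 3 lower of 16, SR protein kinases and their importin 4 and 3 of 10, other nuclear RNA-binding proteins 11 and 10 of 26, and nonsense-mediated decay factors 5 and 4 of 12.

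Footprints of the members were counted in small numbers: 316 and 386 in stimulated replicates 2 and 3, against 181, 220 and 253 in unstimulated replicates 1, 2 and 3. These were 1.52 and 1.63% of the stimulated libraries' footprints, against 1.63, 1.51 and 1.66% of the unstimulated libraries', with 95% exact binomial intervals of 1.35 to 1.80% over the stimulated and 1.32 to 1.88% over the unstimulated libraries. The shares overlapped, and the log2 ratio of the summed CPM was -0.09. Intervals here and below cover counting error only. The SR genes took 0.321 and 0.241% of footprints in stimulated libraries, against 0.278, 0.226 and 0.184% in unstimulated libraries, also overlapping.

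**Figure D4:**
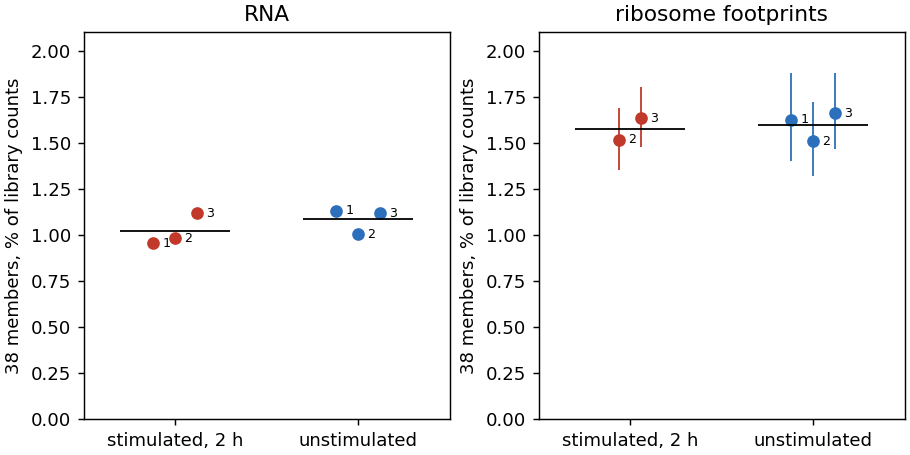
Summed counts of the 38 members as a percentage of each library's counts in RNA (left panel) and ribosome footprints (right panel), with replicate numbers beside the points, a horizontal line at the group mean and, for footprints, 95% exact binomial intervals. Stimulated and unstimulated libraries overlap in both panels, near 1% in RNA and between 1.51 and 1.66% in footprints.

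No member's footprints changed by the test. Of the 38 members, 12 passed the filter on low footprint counts (256 genes in all), which asks for a minimum level in at least 2 of the 5 libraries. Hnrnpa0, with 53 footprints in all, reached that level in 1 library and was not tested. Of these 12, edgeR called 0 higher and 0 lower, where 5.86% of tested genes were called higher and 3.52% lower. At an unadjusted p under 0.05 there was 1 member, Alyref, which is 8.33% of the 12, against 21.1% of all tested genes. DESeq2 also called 0 members. The other 26 members did not pass this filter. With no filter, edgeR called 0 of the members in footprints too, which does not show that their footprints were alike in both states.

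Hnrnpu, whose protein binds RNA and the nuclear scaffold, had 34 and 47 footprints in stimulated libraries, against 20, 32 and 41 in unstimulated libraries. Scaled, these were 1572 and 1957 CPM in stimulated libraries, against 2081, 2113 and 2544 CPM in unstimulated libraries, without overlap (log2 change -0.35 ± 0.29, edgeR adjusted p = 0.513). Hnrnpl had 24 and 27 footprints in stimulated libraries, against 21, 22 and 16 in unstimulated libraries (-0.41 ± 0.40, adjusted p = 0.609), and its scaled values overlapped. In both genes the stimulated values lay below the median of the unstimulated ones. Hnrnpa2b1, which binds mRNAs and acts in their sorting, had 22 and 23 footprints in stimulated libraries, against 13, 16 and 30 in unstimulated libraries (-0.54 ± 0.42, adjusted p = 0.490), and its scaled values did not overlap. Srsf2 had 19 and 14 footprints in stimulated libraries, against 10, 10 and 10 in unstimulated libraries (-0.04 ± 0.55, adjusted p = 0.978), with overlap. These 4 members had at least 10 footprints in each library and none passed the test.

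Alyref (chromosome 11, 120594504 to 120598399) had 5 and 8 footprints in stimulated libraries, against 8, 7 and 18 in unstimulated libraries. Scaled, these were 231 and 333 CPM in stimulated libraries, against 832, 462 and 1117 CPM in unstimulated libraries, without overlap (log2 change -1.48 ± 0.71, edgeR adjusted p = 0.196). Its RNA was at 157, 174 and 235 CPM in stimulated libraries, against 191, 181 and 198 CPM in unstimulated libraries, with a log2 change of -0.01 ± 0.20. Translational efficiency, the change of footprints beyond that of RNA in 1 model over 11 libraries, was -1.49 ± 0.64 for Alyref (edgeR adjusted p = 0.252, unadjusted 0.0194 by the same edgeR model). It did not pass the adjustment.

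For efficiency, 12 members were among 255 genes tested and 0 were called, against a background of 0% higher and 0% lower. At an unadjusted p under 0.05 there were 28 genes, Alyref among them, and DESeq2 called 66 genes and 0 members. Pcbp2 (0.92 ± 0.60) and Ptbp1 (-0.83 ± 0.55) came next in size, each with an adjusted p of 0.603 by edgeR. For the other 9 members the log2 changes lay between -0.47 and 0.52.

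How many footprints a member had for its RNA differed widely among the members. Over all 5 footprint libraries, 1356 footprints were counted where 916 would be counted if the members' footprint CPM equalled their RNA CPM. The ratio of footprint to RNA CPM had a 95% Poisson interval above 1 for 17 members, below 1 for 10 and across 1 for 11. Of the 1904 genes with at least 10 CPM and at least 10 footprints so reckoned, 21.3% lay above and 35.2% below. Of the 26 members among those genes, 9 (34.6%) lay above and 10 (38.5%) below, with a median ratio of 0.870 beside 0.778 for all. For members with fewer footprints so reckoned, no share of like genes was computed. Pcbp1, Hnrnpa0, Pcbp2, Taf15, Hnrnpd, Hnrnpul2 and Srsf9, named below for high ratios, are among these, so their ratios are descriptions. Gene length cancels in this ratio, but what share of RNA reads falls on each coding sequence was not examined. The 4 dominant genes took at least 4.09% of counts in each RNA library and at most 0.734% in any footprint library. Scaling was within each assay, so that larger share lowers the RNA CPM of all other genes. Its part in the members' 1356 footprints against 916 was not tested. No like sum was computed for other genes, so that excess is not read as a result about the members.

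Pcbp1 had the highest ratio among the members. Its footprints numbered 18 and 36 in stimulated libraries, against 10, 9 and 5 in unstimulated libraries, and its ratio was 24.3 (95% interval 18.3 to 31.7) in stimulated cells, against 16.6 (10.7 to 24.8) in unstimulated cells. Hnrnpa0, an A/B protein, followed with 8.87 (6.14 to 12.4) in stimulated cells, against 6.03 (3.63 to 9.41) in unstimulated cells. Pcbp2 stood at 7.24 (4.98 to 10.2) in stimulated cells, against 3.83 (2.23 to 6.13) in unstimulated cells. In each of these genes the 2 intervals overlap. The stimulated ratios set footprints of replicates 2 and 3 against an RNA mean that also holds replicate 1. Taf15 (4.69 in stimulated, 5.73 in unstimulated cells), Hnrnpd (5.30 and 4.79), which binds AU-rich elements of short-lived mRNAs, Hnrnpul2 (4.54 and 3.39), Hnrnpm (4.19 and 3.14), Hnrnpl (3.84 and 3.90) and Srsf9 (3.40 and 4.05) were also above 1 in both states. Alyref stood at 1.51 (0.80 to 2.58) in stimulated cells, against 4.25 (2.92 to 5.96) in unstimulated cells, and there the intervals did not overlap, though the test of that difference, above, did not pass.

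At the other end, Hnrnpa1 (chromosome 15, 103239943 to 103246698), whose protein silences exons and shuttles to the cytoplasm, had 0 footprints in all 5 libraries. Its RNA was at 258, 312 and 406 CPM in stimulated libraries, against 288, 282 and 281 CPM in unstimulated libraries, and 26.4 footprints would be counted at its RNA share. A count of 0 allows up to 3, so its footprint share was at least 8.81-fold lower than its RNA share. Srsf3, an SR protein of splicing and export, had 0 footprints in stimulated libraries and 2 in unstimulated libraries, where 35.6 would be counted at its RNA share. Hnrnpf had 0 in stimulated and 1 in unstimulated libraries where 14.3 would be counted, and Hnrnpk, a poly(C)-binding KH protein, had 7 in stimulated and 10 in unstimulated libraries where 52.6 would be counted. Hnrnpc, Ptbp3, Syncrip, Srsf5, Srsf7 and Srsf10 also lay below 1. The RefSeq table names pseudogenes of Hnrnpa1, Srsf3 and Pcbp2, and how reads that match several places were counted is not given in the sources used here; the part of such copies in these values was not tested. These pooled intervals cover counting error and not the spread between libraries, which was wide for several members. All stimulated footprints came from 1 library for 6 members (Syncrip, Srsf4, Srsf5, Srsf11, Hnrnpa3 and Hnrnph3). Syncrip had 0 and 5 footprints in stimulated libraries, against 0, 6 and 0 in unstimulated libraries, and Srsf5 had 11 and 0 in stimulated libraries, against 2, 2 and 0 in unstimulated libraries. Hnrnpdl had 2 and 12 in stimulated libraries, against 3, 2 and 7 in unstimulated libraries, and Ptbp3 had 4 and 4 in stimulated libraries, against 10, 0 and 2 in unstimulated libraries.

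**Figure D5:**
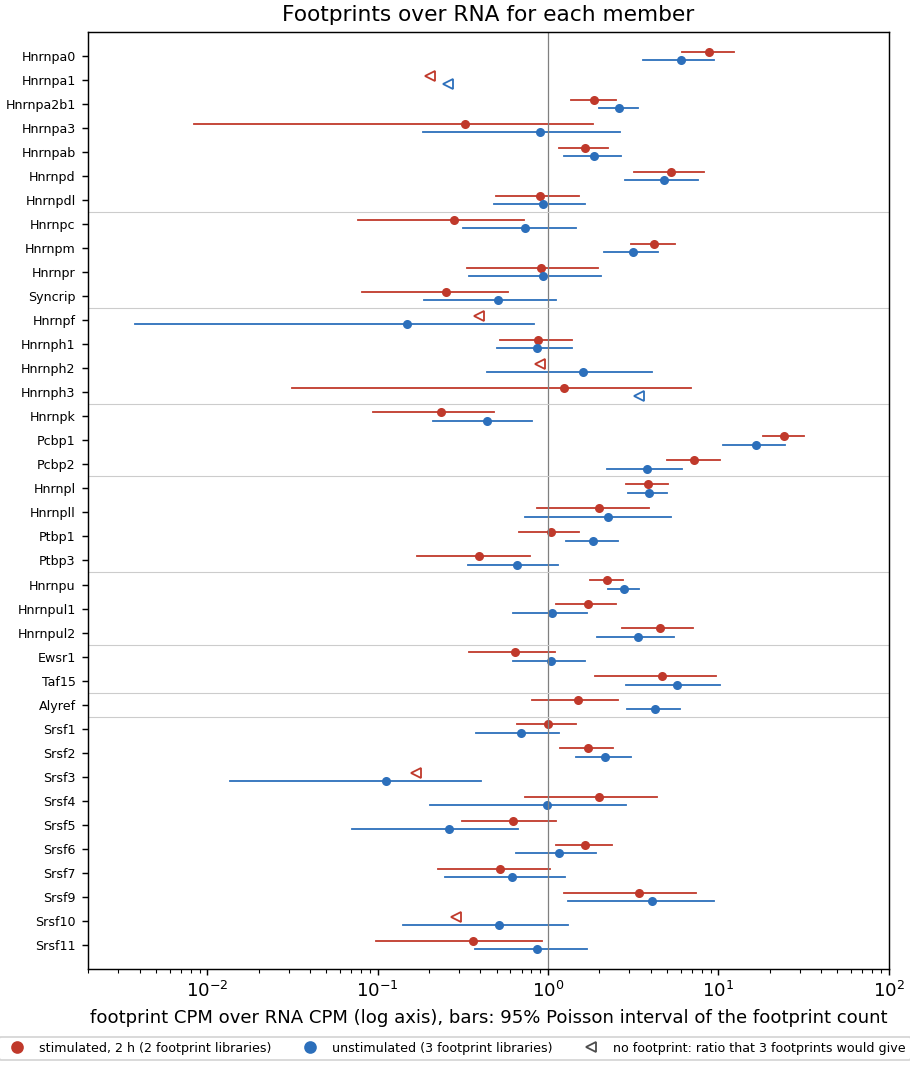
Footprint CPM over RNA CPM on a log axis for each of the 38 members, pooled over the 2 stimulated (above) and the 3 unstimulated footprint libraries (below), with 95% Poisson intervals of the footprint count and open triangles at the ratio that 3 footprints would give where none was counted. Pcbp1 stands at 24.3 and 16.6 in stimulated and unstimulated cells, and Hnrnpa1 has no footprint in either state.

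The test of footprints over RNA could be made for the 12 members that passed the footprint filter, which favours high ratios, so their counts are descriptions. In stimulated cells edgeR called 6 of 12 higher in footprints than in RNA and 0 lower, where 56.1% of the 255 tested genes were called higher and 2.75% lower. These were Pcbp1 (log2 ratio 4.59 ± 0.39, adjusted p = 1.4e-29), Pcbp2 (2.86), Hnrnpm (2.07), Hnrnpl (1.94), Hnrnpu (1.14) and Hnrnpa2b1 (0.91). In unstimulated cells 10 of 12 were called higher and 0 lower, where 54.9% of genes were called higher and 3.53% lower. Pcbp1 was again highest (4.08 ± 0.51, adjusted p = 4.3e-14), followed by Alyref (2.08), Hnrnpl (2.00), Pcbp2 (1.94), Hnrnpm (1.67), Hnrnpu (1.48), Hnrnpa2b1 (1.37), Srsf2 (1.13), Hnrnpab (0.89) and Ptbp1 (0.89). Srsf1 (0.01 in stimulated, -0.50 in unstimulated cells) and Srsf6 (0.73 and 0.21) passed in neither state. The call of Hnrnpu in stimulated cells was lost without stimulated footprint replicate 3 (adjusted p = 0.0602). That of Hnrnpa2b1 there was lost without stimulated footprint replicate 2 (0.122) or 3 (0.106) or stimulated RNA replicate 1 (0.0523) or 2 (0.0547). In unstimulated cells the calls of Hnrnpab and Ptbp1 were lost without unstimulated footprint replicate 2 (0.524 for Hnrnpab and 0.234 for Ptbp1) or any single RNA library other than stimulated replicate 3 (0.0798 to 0.118 and 0.0599 to 0.0988). That of Hnrnpab was also lost without stimulated footprint replicate 2 (0.0593) or 3 (0.0523), and that of Srsf2 without unstimulated footprint replicate 1 (0.0635).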

How the data were processed

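RNA and ribosome footprints were measured in 11 libraries. The authors deposited unnormalized counts, as whole numbers, of reads on each gene's coding sequence. Reads were aligned with STAR 2.5 to GRCm38 (mm10), per the submitters' processing notes. The counting tool, annotation, strand handling and treatment of multiply matching reads are not given in the sources used here. Of 21957 Ensembl identifiers, 21838 were given a symbol from a table of gene names. Gene positions came from the RefSeq gene table of GRCm38.p6. By that annotation, 13 of the 38 members overlap another coding gene.

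Counts were tested with edgeR 4.0.16 in R 4.3.3 (quasi-likelihood F test, two-sided), with its low-count filter (minimum count 10, minimum total 15) and TMM scaling within each assay. Efficiency and footprints over RNA were contrasts of 1 model with a mean per group over 11 libraries, for genes that passed in both assays. P-values were adjusted by Benjamini-Hochberg over every tested gene and judged at 0.05. Levels are CPM on TMM-scaled library sizes. Footprint ratios divide pooled footprint CPM by mean RNA CPM, and their 95% intervals are exact Poisson intervals of the footprint count alone. The procedure was also run on simulated counts with a common spread and, apart from set changes, the same composition in all libraries of an assay. Those counts lack the differences between libraries described above, so that run does not bear on how such differences move the calls.

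Alternatives were DESeq2 1.42.0, limma 3.58.1 (voom), RLE scaling, library totals, scaling without 4 genes, other filters and thresholds, a replicate block, RNA thinned to the median footprint total of 15237 (stimulated RNA replicate 1 left out), and each library left out. A further 3 scalings were chosen after seeing the data. Full values are given for members that passed a test or had at least 10 footprints in each footprint library; others named with values at the ends of the ranking were chosen after their values were seen. From the related lists, up to 3 genes that passed in RNA are named. No table of coding lengths was used here, so levels were not compared between genes. The members, lists and tests were chosen with earlier results of these data known.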

Additional observations from a re-analysis of the deposited data

How the results depend on the processing

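In RNA, 1 member was called higher, 1 lower and 1560 genes in all. Members called higher and lower were 0 and 1 with RLE scaling, 2 and 9 with library totals (5220 genes), 0 and 0 without the 4 dominant genes in the scaling, 0 and 4 with DESeq2 (2892 genes) and 2 and 1 with voom (3387 genes). They were 0 and 0 with no filter, 14 and 5 with a mean of 50 counts (4932 genes), 0 and 0 at an adjusted p of 0.01 (628 genes), 24 and 5 on genes of at least 10 CPM (6228 genes) and 0 and 0 with RNA thinned to footprint depth (17 genes). Among scalings chosen after the data were seen, they were 14 and 17 scaled to the members' sum (6530 genes), 2 and 1 on genes of at least 10 CPM with the factors of all tested genes (2384 genes), and 20 and 4 on all tested genes with the factors of genes of at least 10 CPM (6080 genes). Leaving out 1 library gave 0 to 2 members higher, 0 to 21 lower and 583 to 13024 genes; without unstimulated replicate 2 these were 2, 21 and 13024, and without stimulated replicate 3 they were 2, 10 and 5255. The members' RNA sum (0.09) was -0.13 with RLE scaling and -0.21 to 0.0774 with 1 library left out. The cause of these shifts was not tested. For library totals, voom, a mean of 50 counts and other runs without shares above, percentages of genes called per direction were not computed. Their member counts are not read as results about the members.

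Replicate numbers were not taken to pair the samples, as the labels name no shared origin. Deviations of equal numbers correlated at -0.43, 0.32 and 0.63 in RNA (8494 genes) and -0.02 and 0.00 in footprints (256 genes). In RNA, replicates 2 and 3 matched their own number best and replicate 1 did not, and no replicate did in footprints. Whether equal numbers share an origin was not settled. With replicate number as a block, 1 member was called higher, 0 lower and 2404 genes in RNA (Taf15 adjusted p = 0.0653, edgeR), and the call of Hnrnpab for footprints over RNA in unstimulated cells was lost (0.0602).

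In footprints 0 members were called in every alternative run. All genes called, 24 in the analysis as reported, were 13 with DESeq2, 11 with no filter, 14 with a mean of 50 counts and 12 to 30 with 1 library left out. Efficiency calls, 0 as reported, were 1 with RLE scaling or voom, 15 with library totals, 66 with DESeq2, 3 with no filter or thinned RNA, 6 with a mean of 50 counts and 0 to 24 with 1 library left out (24 without unstimulated RNA replicate 2, 16 without stimulated RNA replicate 3). For footprints over RNA, DESeq2 on all genes called 15 members higher and 5 lower in stimulated cells (2817 genes), and 15 and 4 in unstimulated cells (4138 genes). The percentage of all genes called in each direction was not computed there, so these counts are not read as results about the members. With no filter 3 members were lower in stimulated (1021 genes) and 1 in unstimulated cells (1079 genes). A mean of 50 counts left 0 members (14 and 15 genes called), and thinned RNA 1 in each state (29 and 28 genes). Percentages per direction were not computed for these runs or the runs with no filter either. Their member counts are likewise not read as results about the members. Footprint depth limits what can be called: 7 members had 0 to 5 footprints in all.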
